A study of Macaca mulatta with 12 samples.

Results

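Interferons are secreted signals that cells release on sensing a virus or other microbe. Pattern receptors and sensors (the toll-like receptors and IFIH1) detect foreign nucleic acid or microbial products and activate IRF transcription factors, which switch on interferon genes. Released interferon binds its receptor, for example IFNAR2 with its partner chain, and Janus kinases then phosphorylate STAT proteins, which induce antiviral effectors such as MX1, the OAS enzymes, ISG15 and the IFIT, IFITM and GBP families. Pluripotent stem cells are known for a weak interferon response and for expressing some of the effector genes without interferon, whereas fibroblasts respond strongly.

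The interferon response genes described here are the 50 genes whose single annotated symbol belongs to these families (IFI with a number, IFIT including IFITM, IFNAR, IFNGR, single-digit IRF, OAS, STAT, GBP and TLR) or is MX1, MX2, ISG15, ISG20, DDX58, IFIH1 or BST2. They are 50 of 12993 named genes on the array and are covered by 95 of 52766 probe sets. Where a gene had several probe sets, the one with the highest mean over all 12 arrays stood for it. No difference between groups was used to choose a gene or its probe set. Most of the arrays are of ES lines, however, so the rule favours probe sets that read high in ES cells. By role there were 1 interferon receptor chain, 11 pattern receptors or sensors, 5 STATs, 7 IRFs, 15 antiviral effectors, 4 guanylate-binding proteins and 7 other interferon-inducible genes. IFNAR1, IFNGR1, IFNGR2, IRF9 and DDX58 were not analysed here, since no probe set carried those symbols alone.

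RNA of rhesus macaque cells was hybridised to 12 Affymetrix rhesus arrays, 3 for each of 4 cell populations, with replicates lettered A, B and C. ORMES-22 is a biparental embryonic stem (ES) cell line from an in vitro fertilised blastocyst, at passages 18, 21 and 19. rPESC-2 is a heterozygous parthenogenetic ES line, from an egg that developed without sperm, at passages 16, 10 and 16. ORMES-9 is a homozygous parthenogenetic ES line at passages 13, 14 and 16, although its source field names a fertilised blastocyst, so its labels conflict. The ES lines are labelled female and were grown on inactivated mouse embryonic fibroblast feeders with 15% fetal bovine serum, and undifferentiated colonies were picked. The control cells are male skin fibroblasts, labelled as from the back skin of a 9-year-old monkey, grown with 10% serum and with no feeders named. All cultures were kept at 5% O2 and 3% CO2, and the labels name neither a virus nor an added interferon. Each ES population is a single line, so the p-values measure the spread between cultures of one line. The labels do not say whether the fibroblast replicates came from 1 biopsy or several. Sex, age, serum, feeders and cell type differ together between fibroblasts and ES lines, and their parts cannot be told apart. In such bulk RNA, fewer cells with a transcript and less transcript per cell cannot be told apart either.

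Values are log2 expression, so a difference of 1 is a 2-fold change. A difference was called when limma gave a Benjamini-Hochberg adjusted p under 0.05 over all 52766 probe sets and the change was at least 2-fold. Background was set at 4.26, below which 90% of the readings of 42 bacterial control probe sets fell. Array medians lay between 5.01 and 5.10. ORMES-22 array A stood a little apart, with correlations of 0.9855 and 0.9844 to arrays B and C against 0.9928 between those. No interferon response gene differed 2-fold between array A and the mean of B and C. The cell labels were checked with marker genes. Of 11 measured pluripotency markers, 9 were called lower and 1, NANOG, was called higher in fibroblasts (NANOG mean 9.53 against 7.95 to 8.41 in the ES lines). Of 11 fibroblast markers 9 were called higher in fibroblasts, where their mean level per array was 11.40 to 11.43 against 7.59 to 8.93 in ES arrays. Of 8 leukocyte markers none was called in fibroblasts against ES lines. PTPRC, which marks leukocytes, was below background in every group (means 3.89 to 4.09). Of the 8, however, 7 were above background in an ES line and 6 in fibroblasts, so the list as a whole did not read as absent.

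Most of the machinery was readable, but 8 of 50 genes stayed below background in all groups. These were GBP6, GBP7, IFIT1, IRF4 and the toll-like receptors TLR1, TLR3, TLR8 and TLR10. At least 1 group lay above background for 84% of the interferon response genes, compared with 90.7% of all genes. In ES lines 36 genes (72%) were above background, against 88.9% of all genes, and in fibroblasts 42 (84%), against 85.4%. All 36 of those genes were also above background in fibroblasts, and 6 were above it in fibroblasts only: IFI16, IFI44, IFIH1, IRF2, GBP1 and TLR6.

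The roles differed in how many genes were above background in the ES lines. Of 15 effectors 14 were above background in ES cells, the exception being IFIT1, as were IFNAR2 and all 5 STATs. Some were only just above the level of 4.26. The ES line means of OAS2, MX2 and IFIT1B were 4.42 to 4.55, and those of OASL and STAT5A 4.61 to 4.75. Of 11 pattern receptors and sensors 5 were above it in ES cells, namely TLR2, TLR4, TLR5, TLR7 and TLR9, and 7 in fibroblasts. Of 4 guanylate-binding proteins, GTPases that act on vacuoles holding microbes, only GBP2 was above it in ES cells. The heat map of the 50 genes by array shows the ES arrays alike across nearly every row. The fibroblast mean differs by 2-fold or more from that of the ES lines in a minority of rows.

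**Figure D1:**
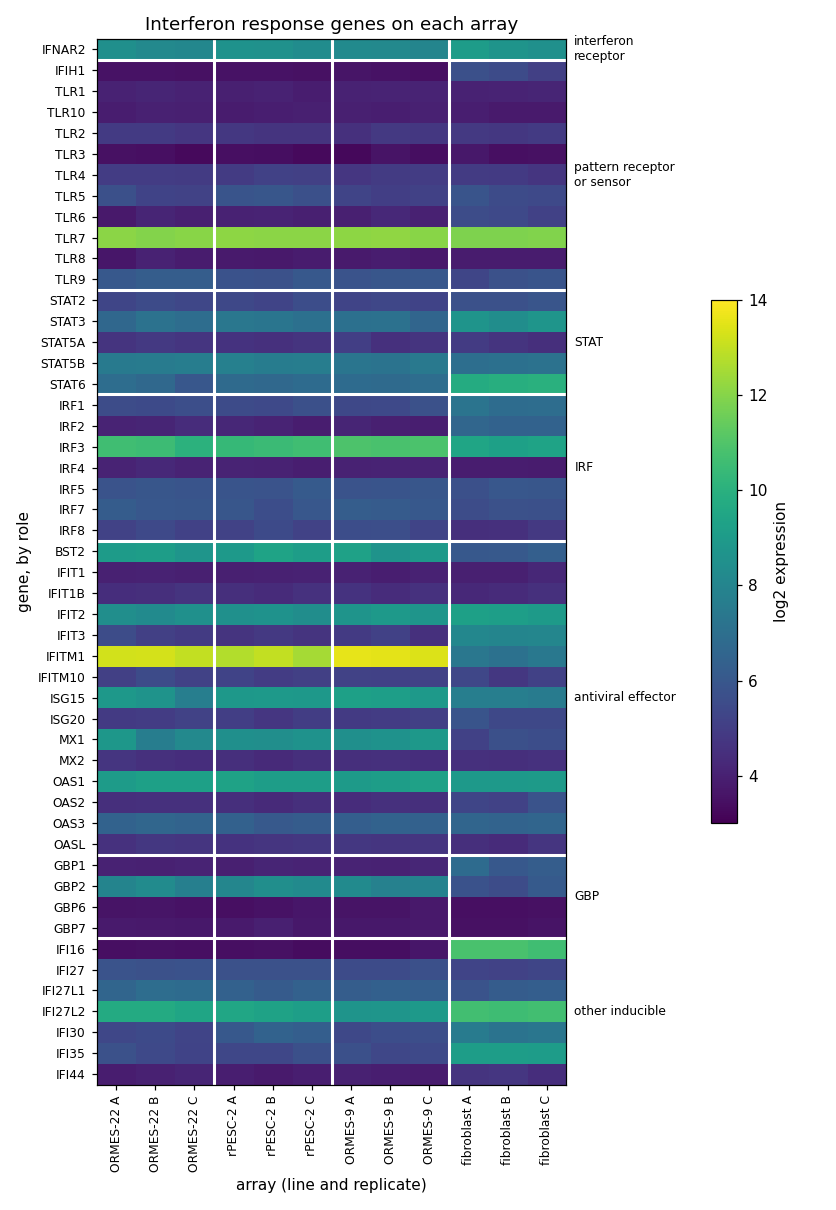
Log2 expression (colour scale) of the 50 interferon response genes in rows, ordered by role, on the 12 arrays in columns, 3 per population. The 9 ES columns differ by less than 1 in 44 of 50 rows, whereas IFI16, IFI35, STAT6 and IFIT3 are higher and IFITM1, MX1, BST2 and GBP2 lower in the 3 fibroblast columns.

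The receptor chain and the signalling factor that the type I receptor uses were present in every line. IFNAR2, the ligand-binding chain of the type I receptor, read 8.48, 8.16 and 8.08 in ORMES-22, 8.60, 8.59 and 8.33 in rPESC-2, and 8.28, 8.19 and 8.01 in ORMES-9. In fibroblasts it read 9.09, 8.70 and 8.52, so the lowest fibroblast array overlapped the ES range. The fibroblast difference was 0.47 (SE 0.12, limma adjusted p = 0.0055), under 2-fold. STAT2, a transcription factor of the type I response, read 5.32, 5.52 and 5.35 in ORMES-22, 5.39, 5.26 and 5.62 in rPESC-2, and 5.24, 5.32 and 5.23 in ORMES-9. Its fibroblast arrays, at 5.73, 5.71 and 5.90, lay just above all ES arrays, with a difference of 0.42 (SE 0.08, limma adjusted p = 0.00083). Neither gene differed by more than 0.35 between any pair of ES line means.

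The series design first sets the heterozygous parthenogenetic line against the biparental line. None of the 50 genes was called between rPESC-2 and ORMES-22, where 1.7% of all genes were, and none of their 95 probe sets was, against 1.24% of all probe sets. At an unadjusted p under 0.05, 8 genes (16%) differed, against 26.2% of all genes, and limma with an intensity trend or with robust moderation also called 0. The median absolute difference was 0.10, against 0.15 for all genes. For the 36 interferon response genes above background in an ES line it was 0.13, against 0.17 for all genes above it there. For 49 of 50 genes (98%) the 95% confidence interval lay within 2-fold, as it did for 92.2% of all genes.

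IFI30, a lysosomal thiol reductase that helps to prepare antigens, was the gene that came nearest. It read 6.02, 6.45 and 6.30 in rPESC-2, against 5.36, 5.47 and 5.27 in ORMES-22. The groups did not overlap, and the difference was 0.89 (SE 0.13, 95% interval 0.60 to 1.18, limma adjusted p = 0.0024). Without rPESC-2 array A it was 1.01 and was called.

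The homozygous parthenogenetic line was set against the biparental line in the same way. Again 0 of 50 genes were called between ORMES-9 and ORMES-22, where 2.29% of all genes were, and 0 of 95 probe sets against 1.57% of all. At an unadjusted p under 0.05, 8 (16%) differed, against 24.5% of all genes, and the intensity trend and robust moderation also gave 0 calls. The median absolute difference was 0.08 against 0.14 for all genes. Among genes above background in an ES line it was 0.11 for the 36 interferon response genes and 0.15 for all. The confidence interval lay within 2-fold for 48 genes (96%), against 92.4% of all genes.

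IFI27L1 and IFI27L2, relatives of the interferon-inducible IFI27, passed the adjusted p without reaching 2-fold. IFI27L2 read 8.69, 8.74 and 8.96 in ORMES-9 and 9.71, 9.73 and 9.45 in ORMES-22, with no overlap. It was lower by less than 2-fold, with a difference of -0.84 (SE 0.11, 95% interval -1.07 to -0.60, limma adjusted p = 6e-04). IFI27L1 was 6.24, 6.38 and 6.27 against 6.60, 6.93 and 6.84, a difference of -0.49 (SE 0.13, limma adjusted p = 0.046).

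ISG15, a ubiquitin-like protein attached to other proteins in the interferon response, did not pass the adjusted p in this comparison. Its ORMES-9 arrays read 9.27, 9.16 and 8.95, and its ORMES-22 arrays 8.88, 8.65 and 7.69. The difference was 0.72 (SE 0.23, 95% interval 0.22 to 1.22, limma adjusted p = 0.1). It was 0.36 without ORMES-22 array C and 0.95 without array A, so array C decided its size. In rPESC-2, at 8.86, 8.94 and 8.85, the difference from ORMES-22 was 0.48, and it was 0.12 without array C.

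The parthenogenetic lines were also set against each other. None of 50 genes was called between ORMES-9 and rPESC-2, where 1.65% of all genes were; 9 (18%) differed at an unadjusted p under 0.05, against 21.8% of all genes, and 0 were called with the intensity trend or robust moderation. The median absolute difference was 0.08 against 0.12 for all genes. Among genes above background in an ES line the order was reversed, with 0.15 for the 36 interferon response genes and 0.14 for all. The interval lay within 2-fold for 47 genes (94%), against 93.1% of all genes. At any size 5 genes passed the adjusted p, against 7.72% of all genes, which is 10% of the 50.

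IFITM1, a membrane protein that hinders virus fusion with the cell, was the higher one of those 5 in ORMES-9. It read 13.60, 13.55 and 13.41 in ORMES-9 and 12.74, 12.97 and 12.51 in rPESC-2, with ORMES-22 between them at 13.23, 13.30 and 12.97. The difference of ORMES-9 from rPESC-2 was 0.78 (SE 0.13, 95% interval 0.50 to 1.06, limma adjusted p = 0.004). Its second probe set read 13.38, 13.35 and 13.01 against 11.87, 12.34 and 11.65, a difference of 1.30 that was called (SE 0.20, limma adjusted p = 0.0028). It was the only one of the 95 probe sets called in this comparison, where 1.23% of all probe sets were. Both probe sets thus placed the line means in the same order, and the rule for the probe set decided whether IFITM1 was called. Leaving out any one array kept the second probe set's difference between 1.14 and 1.49.

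The 4 genes lower in ORMES-9 than in rPESC-2 at any size were IFI30, TLR5, IFI27L2 and STAT5B. TLR5, the receptor for bacterial flagellin, read 5.25, 5.03 and 5.12 in ORMES-9 and 5.88, 5.92 and 5.70 in rPESC-2, a difference of -0.70 (SE 0.15, limma adjusted p = 0.016). IFI30 differed by -0.73 and IFI27L2 by -0.53, so IFI30 stood apart in rPESC-2 alone and IFI27L2 was lowest in ORMES-9. STAT5B, which relays cytokine and growth hormone signals, differed by -0.37.

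Over the 9 ES arrays 6 genes spanned 1 log2 unit or more: ISG15 (1.58), MX1 (1.20), IFI30 (1.18), IFITM1 (1.09), IFI27L2 (1.04) and IFIT3 (1.00). For ISG15 and MX1 the spread lay largely inside ORMES-22, where the ranges were 1.19 and 1.17, while within rPESC-2 they were 0.09 and 0.19 and within ORMES-9 0.32 and 0.37. For IFI30, IFITM1 and IFI27L2 no range within an ES line exceeded 0.46. Between the ES lines the mean of the 11 fibroblast markers was 8.72 in ORMES-22 and 8.03 or less in rPESC-2 and ORMES-9, and its part in these small differences was not tested. Nor was any reading of mouse feeder RNA by these rhesus probes.

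**Figure D2:**
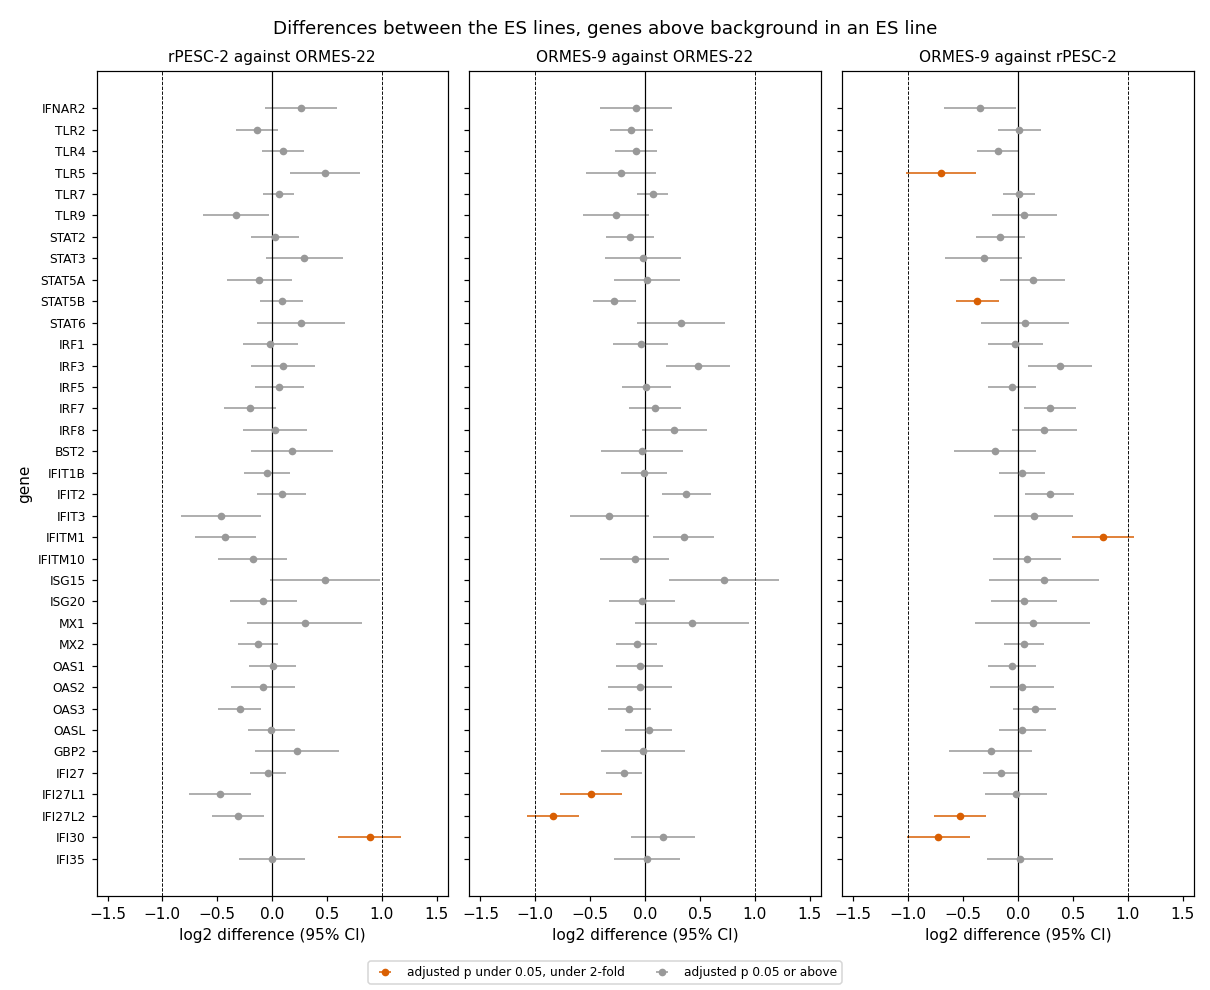
Log2 differences with 95% confidence intervals (horizontal axes) between the ES lines for the 36 genes above background in an ES line, 1 panel per comparison, with dashed lines at 2-fold. The points of the 8 differences with an adjusted p under 0.05, in 6 genes, lie inside the dashed lines, and IFI30 in rPESC-2 against ORMES-22 comes nearest at 0.89.

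Fibroblasts, the somatic control of the design, were set against the mean of the ES lines. Of 50 genes 18 (36%) were called, where 28.3% of all genes were. 12 genes (24%) were higher in fibroblasts, against 13.2% of all genes, and 6 (12%) were lower, against 15% of all genes. The median difference was 0.02, against -0.15 over all genes, and the median absolute difference was 0.46 against 0.47. The genes thus did not move as a block. Some sensors, STATs and other inducible genes were called higher, as were IFIT3, GBP1, IRF1 and IRF2. Called lower were 4 effectors, GBP2 and IRF3. In 17 of the 18, ISG15 being the exception, no fibroblast array overlapped an ES array, as was so for 98.7% of all called genes. The comparison with each ES line alone called 17, 18 and 18 genes for ORMES-22, rPESC-2 and ORMES-9, which share the fibroblast arrays.

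**Figure D3:**
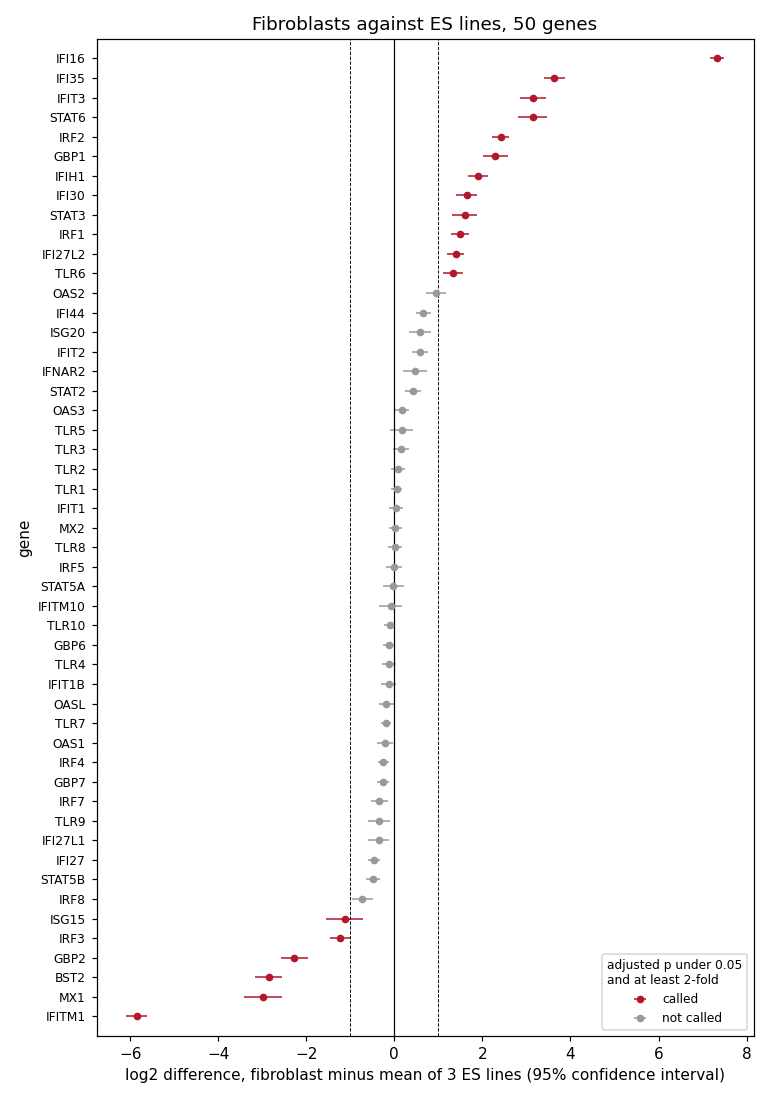
Log2 difference of fibroblasts from the mean of the 3 ES lines (horizontal axis) with its 95% confidence interval for all 50 genes, ordered by size; dashed lines mark 2-fold. The 12 genes called higher run from TLR6 at 1.33 to IFI16 at 7.32, and the 6 called lower from ISG15 at -1.13 to IFITM1 at -5.86.

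Among pattern receptors and sensors, 2 of 11 were called higher in fibroblasts and 0 lower. IFIH1, which senses long viral RNA in the cytoplasm, read 5.69, 5.51 and 5.07 in fibroblasts and 3.47 to 3.62 (median 3.52) over the 9 ES arrays. All ES arrays were below background, and the difference was 1.90 (SE 0.10, limma adjusted p = 7.3e-09), at least 2.24-fold when ES arrays were set at the background level. TLR6, which pairs with TLR2 to detect bacterial lipopeptides, read 5.54, 5.42 and 5.11 in fibroblasts and 3.74 to 4.26 (median 3.99) in ES arrays. Its difference was 1.33 (SE 0.11, limma adjusted p = 2.9e-07), at least 2.14-fold against the background level. TLR6 has a second probe set, which was below background in all groups and was not called (-0.13).

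The remaining 9 toll-like receptors differed by less than 2-fold. TLR7, a receptor for RNA in endosomes, read 11.86 to 11.92 in fibroblasts and 11.97 to 12.15 in ES arrays, a difference of -0.19 (SE 0.05). Its other probe sets had ES line means near 10 and near 4 and differed by -0.56 and -0.33, so the 3 probe sets of TLR7 read at very unlike levels in the same RNA. TLR9 differed by -0.35 and TLR5 by 0.17.

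Among the STATs, 2 of 5 were called higher. STAT6, which carries interleukin 4 and 13 signals, read 9.75, 9.88 and 9.97 in fibroblasts and 5.97 to 6.92 (median 6.82) in ES arrays. The difference was 3.14 (SE 0.15, limma adjusted p = 2.5e-09), an 8.83-fold higher level, and the other probe sets gave 1.14 and 2.68, both called. STAT3, which carries interleukin 6 family signals and in mouse ES cells those of leukemia inhibitory factor, read 8.69, 8.40 and 8.74 in fibroblasts and 6.57 to 7.34 (median 7.06) in ES arrays, a difference of 1.59 (SE 0.13, limma adjusted p = 3.9e-07). STAT5A and STAT5B differed by -0.02 and -0.48. STAT3, STAT5A and STAT5B lie next to each other in the RefSeq gene order of the assembly T2T-MMU8v2.0, and STAT3 alone of the 3 was called.

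Of the 7 IRFs, 2 were called higher and 1 lower. IRF1, an activator induced by interferon gamma, read 7.25, 6.91 and 6.94 in fibroblasts and 5.40 to 5.71 (median 5.50) in ES arrays, a difference of 1.50 (SE 0.09, limma adjusted p = 3.1e-08). IRF2, which competes with IRF1 for its sites, read 6.65, 6.44 and 6.44 against 3.90 to 4.38 (median 4.08). Its difference was 2.42 (SE 0.09, limma adjusted p = 2.5e-10), at least 4.72-fold against the background level, which 1 ES array exceeded.

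IRF3, the factor that sensors activate to start interferon beta transcription, was lower in fibroblasts. It read 9.46, 9.25 and 9.39 there and 10.05 to 10.91 (median 10.63) in ES arrays, a difference of -1.23 (SE 0.11, limma adjusted p = 9e-07). Its second probe set gave -1.22 and was called too. The difference was 2.34-fold and thus close to the threshold. Of the other IRFs, IRF8 differed by -0.73, IRF7 by -0.34, IRF4 by -0.25 with all group means below background, and IRF5 by -0.01.

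Of the 15 antiviral effectors, 4 were called lower in fibroblasts and 1 higher. IFITM1 read 7.36, 7.12 and 7.39 in fibroblasts and 12.51 to 13.60 (median 13.23) in ES arrays. This was the largest decrease among the 50 genes, with a difference of -5.86 (SE 0.10, limma adjusted p = 3e-13), or 57.9-fold. The second probe set gave -6.18.

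MX1, a dynamin-like GTPase that blocks influenza and other viruses, read 5.14, 5.68 and 5.61 in fibroblasts and 7.65 to 8.85 (median 8.48) in ES arrays. The lowest ES array, ORMES-22 B, still exceeded every fibroblast array, and the difference was -2.98 (SE 0.20, limma adjusted p = 5e-08). BST2, known as tetherin because it holds budding virus at the cell surface, read 6.05, 6.09 and 6.33 against 8.63 to 9.37 (median 9.03). Its difference was -2.85 (SE 0.14, limma adjusted p = 3e-09), and its second probe set gave -1.80.

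ISG15 was the weakest of the decreases. It read 7.71, 7.72 and 7.59 in fibroblasts and 7.69 to 9.27 (median 8.88) in ES arrays, where the lowest, ORMES-22 C, lay among the fibroblast values. The difference was -1.13 (SE 0.19, limma adjusted p = 2.2e-04), and against ORMES-22 alone it was -0.73 and not called.

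IFIT3, one of the proteins that bind foreign RNA together with IFIT1 and IFIT2, was the effector called higher. It read 8.10, 8.01 and 8.05 in fibroblasts and 4.54 to 5.54 (median 4.89) in ES arrays, a difference of 3.14 (SE 0.14, limma adjusted p = 9.5e-10), or 8.84-fold. Its other 2 probe sets gave 0.57 and 0.99 and were not called. IFIT2, IFIT1B and IFIT1, its neighbours in the RefSeq order, differed by 0.57, -0.12 and 0.03, and IFIT1 was below background throughout.

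On their chosen probe sets the rest of the effectors stayed under 2-fold. Dimmer probe sets of OAS3 (3.13 and 3.30) and of IFIT2 (1.65 and 2.11) were called higher in fibroblasts. OAS1, OAS2 and OAS3, enzymes that make the messenger activating RNase L, differed by -0.21, 0.95 and 0.17, and OASL by -0.18. ISG20, an exonuclease, differed by 0.59, and MX2, the immediate neighbour of MX1, by 0.02 at means of 4.42 to 4.55 in all groups. IFITM10 differed by -0.09.

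Of the 4 guanylate-binding proteins, the neighbours GBP1 and GBP2 were called in opposite directions. GBP1 read 6.85, 6.01 and 6.25 in fibroblasts and 3.98 to 4.17 (median 4.08) in ES arrays, a difference of 2.29 (SE 0.13, limma adjusted p = 1.4e-08) and at least 4.33-fold against the background level. GBP2 read 5.77, 5.58 and 6.10 in fibroblasts and 7.76 to 8.42 (median 8.05) in ES arrays, a difference of -2.27 (SE 0.14, limma adjusted p = 3.2e-08). No array overlapped between the groups for either gene. GBP6 and GBP7, in the same cluster, were below background everywhere. For GBP1, 4 of 6 probe sets were called higher (2.29 to 3.06) and the remaining 2 lay below background. For GBP2 the other 2 probe sets lay below background in all groups and gave 0.19 and 0.25, and the mean over all 3 gave -0.61, which was not called.

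**Figure D4:**
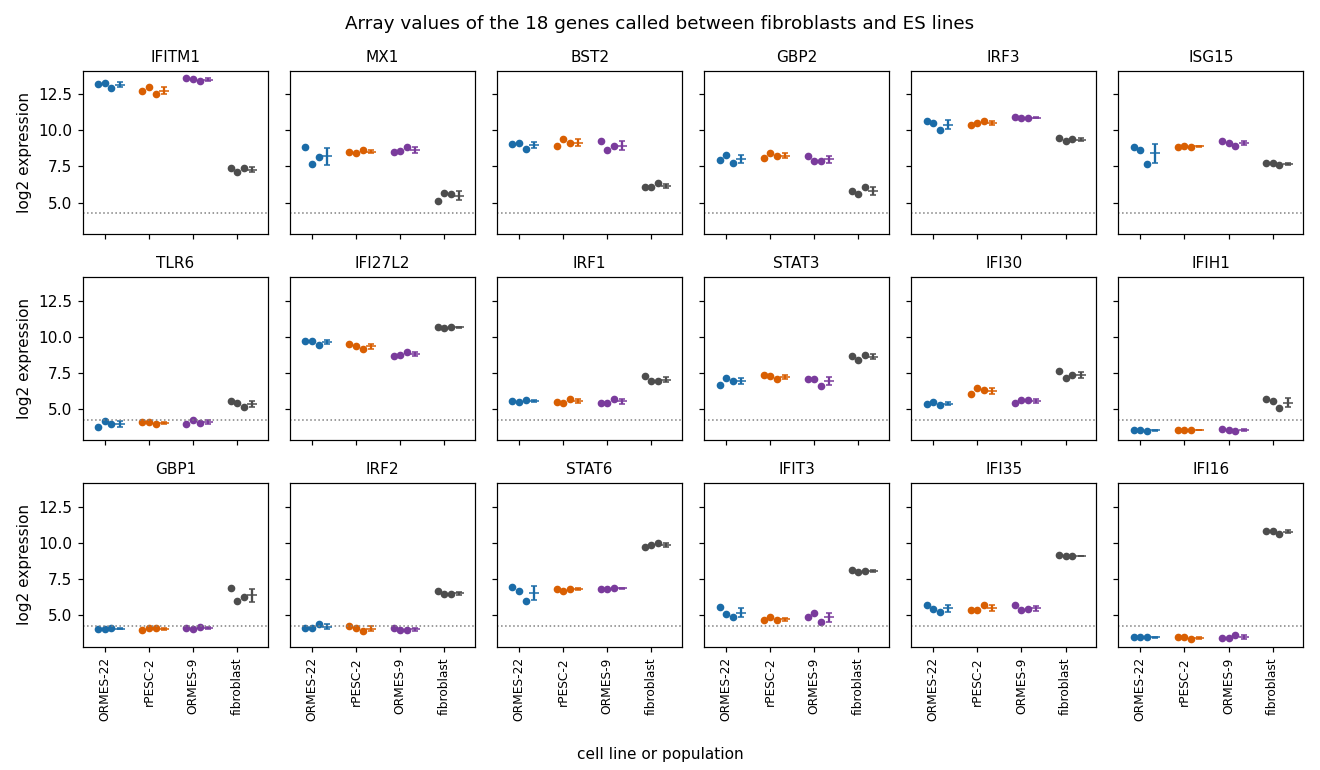
Log2 expression (vertical axes) of the 18 genes called between fibroblasts and ES lines on each array (points, 3 per population), with the mean and SD beside them and the background level dotted. In all panels but ISG15 the fibroblast points clear all 9 ES points. For IFI16, IFIH1, GBP1 and TLR6 every ES point lies below background, the highest of TLR6 only just.

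The other interferon-inducible genes held the largest increase. IFI16, a nuclear sensor of foreign DNA, read 10.86, 10.85 and 10.64 in fibroblasts and 3.35 to 3.65 (median 3.45) in ES arrays. All ES arrays were below background, and the difference was 7.32 (SE 0.07, limma adjusted p = 2.8e-15), at least 92.0-fold against the background level. Its other probe sets gave 5.50 and 4.30, both called, so all 3 placed IFI16 at background in ES cells and well above it in fibroblasts.

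IFI35, a leucine zipper protein that binds NMI, read 9.13, 9.10 and 9.09 in fibroblasts and 5.23 to 5.73 (median 5.42) in ES arrays, a 12.4-fold higher level (SE 0.11 on the log2 scale, limma adjusted p = 3.9e-11). IFI30 read 7.59, 7.17 and 7.32 against 5.27 to 6.45 (median 5.59), a difference of 1.64 (SE 0.11, limma adjusted p = 4.9e-08). IFI27L2 read 10.67, 10.59 and 10.66 against 8.69 to 9.73 (median 9.33), a difference of 1.39 (SE 0.09, limma adjusted p = 3.7e-08). IFI30 and IFI27L2, which passed the adjusted p between ES lines, were higher in fibroblasts than on any ES array. IFI27 and IFI27L1, the neighbours of IFI27L2, differed by -0.46 and -0.36, and IFI44 by 0.66.

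How far the calls rested on the choice of probe set could be read from the 23 genes with several. In fibroblasts against ES lines, all probe sets were called in the same direction for 5 genes (BST2, IFI16, IFITM1, IRF3 and STAT6), none was called for 12, and some were called for 6. Of the 95 probe sets 32 were called, 23 higher and 9 lower, where 19.3% of all probe sets were called. For no gene were probe sets called in both directions. For OAS3 and IFIT2 the chosen probe set was not called while dimmer ones were, and which of them read the gene correctly was not tested. The chosen OAS3 probe set differed by 0.17, but the other 2 had fibroblast means of 7.22 and 6.80 with ES line means below background, and gave 3.13 and 3.30. For IFIT2 the chosen probe set gave 0.57 and those ranked 2 to 4 by level gave 0.36 to 0.63, uncalled. The 2 dimmest of its 6 gave 1.65 and 2.11. Taking the probe set with the highest SD, 20 of 50 genes were called, 14 higher and 6 lower. That rule favours probe sets that differ between groups, so its count is no independent check. Its share over all genes is not given here.

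**Figure D5:**
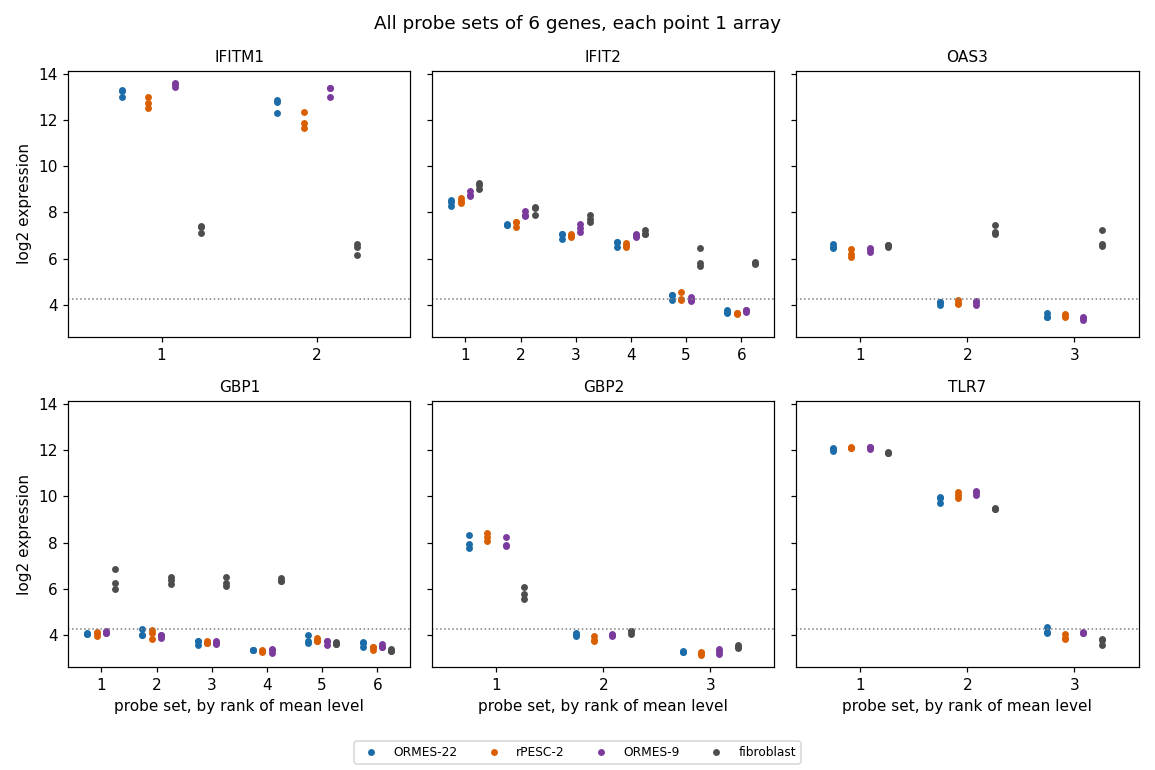
Log2 expression (vertical axes) on each array (points, coloured by population) for every probe set of 6 genes, ranked by mean level (horizontal axes), with the background level dotted. Both IFITM1 probe sets place fibroblasts far below the ES lines, whereas for OAS3 and IFIT2 the highest probe set shows a small difference and dimmer ones, with ES arrays near background, show fibroblasts higher.

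Other genes of the pathway were taken from a list of 73 that holds ligands, adaptors and kinases, restraining factors and further targets, of which 50 were measured. Between ES lines the calls fell on 4 of them. TRIM5, a restriction factor that recognises retroviral capsids, read 8.13, 8.01 and 7.68 in rPESC-2, against 9.91, 9.66 and 9.68 in ORMES-22 and 9.71, 10.00 and 9.64 in ORMES-9. It was called lower in rPESC-2 than in ORMES-22 (-1.81, SE 0.13, limma adjusted p = 1e-05), and ORMES-9 exceeded rPESC-2 by 1.84 (limma adjusted p = 5.6e-06). In both comparisons 3 of its 4 probe sets were called in that direction, and the fourth had ES line means of 4.81 to 5.05.

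TRIM22, a relative of TRIM5 with antiviral activity, was lower in both parthenogenetic lines. It read 8.23, 8.13 and 7.83 in rPESC-2 and 7.74, 8.18 and 7.90 in ORMES-9, against 9.59, 9.48 and 9.69 in ORMES-22. The differences were -1.52 (SE 0.13, limma adjusted p = 4.3e-05) and -1.65 (limma adjusted p = 1.4e-05), from comparisons that share the ORMES-22 arrays. The second TRIM22 probe set showed neither difference (-0.03 and 0.05).

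JAK2, a kinase of the interferon gamma receptor, read 8.46, 8.38 and 8.45 in rPESC-2 against 9.36, 9.53 and 9.52 in ORMES-22, a difference of -1.04 (SE 0.08, limma adjusted p = 1.9e-05). Its other probe sets gave 0.08 and 0.03. SAMD9L, an interferon-inducible restraint on growth and on poxviruses, read 4.32, 4.97 and 4.99 in ORMES-9 against 6.19, 5.61 and 6.20 in rPESC-2, a difference of -1.24 (SE 0.20, limma adjusted p = 0.003), with 0.05 and 0.04 in its other probe sets. Of the 50 measured pathway genes 6%, 2% and 4% were called in the 3 ES comparisons, against 1.7%, 2.29% and 1.65% of all genes.

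Between fibroblasts and ES lines, 23 of the 50 pathway genes were called (46%, against 28.3% of all genes), 18 higher and 5 lower. The increases fell on 1 of 5 ligands, 5 of 15 adaptors and 12 of 24 targets, and the decreases on 1 adaptor, 2 of 6 restraining factors and 2 targets. IL6, an inflammatory cytokine, was below background in each ES line mean and averaged 11.58 ± 0.10 (SD, n = 3) in fibroblasts, at least 160.0-fold against the background level. LY96, the partner of TLR4 in binding lipopolysaccharide, averaged 8.42 ± 0.09 (SD, n = 3) there, at least 17.9-fold. SP100, a nuclear body protein, and NMI, the partner of IFI35, were 20.3-fold and 16.9-fold higher.

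Of the 4 genes for interferons measured, IFNB1, IFNG and IFNK were below background in every group. IFNL1, which encodes interferon lambda, was above it throughout, with means of 6.08 in ORMES-22, 6.01 in rPESC-2, 6.25 in ORMES-9 and 5.89 in fibroblasts, and differed by -0.23. The 5 called lower in fibroblasts were DHX58, a regulator of the RNA sensors, the chromatin silencers TRIM28 and SETDB1, TRIM5, and UBE2L6, the enzyme that passes ISG15 to its targets. DHX58, chosen for mention after its values were seen, read 8.47 to 9.11 over the 9 ES arrays and 4.63, 4.63 and 4.81 in fibroblasts, a difference of -4.08 (SE 0.08, limma adjusted p = 4.6e-13). TRIM28 differed by -2.49 and SETDB1 by -1.70. TRIM5 (-1.43) and UBE2L6 (-1.15) overlapped between fibroblast and ES arrays: the fibroblast mean of TRIM5, 7.73, was close to the 7.94 of rPESC-2, and that of UBE2L6, 7.53, to the lowest ORMES-22 array. The other TRIM5 probe sets gave -0.59, -0.92 and -0.10 and were not called.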

How the data were processed

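Total RNA of 12 samples was measured on 1 rhesus Affymetrix array each. The submitters' processing notes name RMA, and the deposited values are on a log2 scale, as read from the values. Which RMA version, software and probe set definition the authors used is not given in the sources used here. RMA evens out the arrays and understates differences near background. The number of arrays limits the precision.

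Symbols came from the platform annotation: of 52766 probe sets (52865 features less 99 controls), 24956 had 1 symbol, 361 several and 27449 none. Gene counts leave out 1691 probe sets named by LOC number. All 50 interferon response genes matched RefSeq genes of T2T-MMU8v2.0, 49 by gene ID, and kept their names. That table served for names and gene order only, since it is not the array's build. No sequence was used here.

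limma 3.58.1 in R 4.3.3 fitted group means over all 12 arrays (lmFit, eBayes, 8 residual and 3.69 prior degrees of freedom, no covariate), with two-sided p-values; the fit was tested on simulated data. Array values are given by rule for called genes whose arrays do not overlap, up to 10 higher and 10 lower per comparison, and for IFNAR2 and STAT2. They were added, after the values were seen, for the remaining called genes and for genes with an adjusted p under 0.05 between ES lines or a wide spread. Of pathway genes, the rule named those called between ES lines and the 4 with the largest called fibroblast difference; others were chosen after their values were seen. For folds given as at least a value, ES arrays below background were set at the background level. The genes, lists and tests were chosen with earlier results of these data known.

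Replicate letters did not pair the arrays: of 18 same-letter pairs of arrays, 6 had deviations from their group means correlated above 0.1 (range -0.306 to 0.2647). Alternatives covered the filter on dim probe sets, normalization, moderation, fold minimum, probe set choice, arrays left out, arrays in the fit, the reference line and the replicate block.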

Additional observations from a re-analysis of the deposited data

How the results depend on the processing

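Leaving out each array in turn gave 0 to 1, 0 and 0 called interferon response genes in rPESC-2 against ORMES-22, ORMES-9 against ORMES-22 and ORMES-9 against rPESC-2, and 18 to 19 in fibroblasts; the 1 was IFI30 without rPESC-2 array A. For pathway genes these ranges were 3 to 4, 1, 2 to 3 and 22 to 24. Without a fold minimum, 1, 2, 5 and 34 interferon response genes were called (2%, 4%, 10% and 68%), against 6.74%, 8.6%, 7.72% and 71.2% of all genes. For pathway genes the counts were 5, 4, 4 and 39 (10%, 8%, 8% and 78%). A 3-fold minimum left 1 pathway gene in each ES comparison and 16 in fibroblasts. It left 13 of the 18 interferon response genes in fibroblasts, ending the calls of IRF1, IRF3, ISG15, IFI27L2 and TLR6. With the mean of all probe sets of a gene, 1, 0 and 1 pathway genes were called in the ES comparisons. IFITM1 then made 1 call in ORMES-9 against rPESC-2 (1.04). It did so too with the highest-SD probe set (1.30), a choice that favours probe sets differing between groups. With the replicate letter as a block, the counts stayed at 0, 0, 0 and 18, and at 3, 1, 2 and 23 for pathway genes; 3 of 12 arrays correlated best with their own letter. Of 741 recomputed values for the larger fibroblast differences and the largest ES differences, 727 kept their call, 10 gained it, 4 lost it and 0 changed sign. The 4 were GBP2 (-0.61, mean of its probe sets) and, at a 3-fold minimum, IRF1, IRF3 and the second IFITM1 probe set. Over all probe sets, 656 calls in rPESC-2 against ORMES-22 became 1493 without ORMES-22 array A and 332 in a fit of those lines alone, and 831 in ORMES-9 against ORMES-22 became 1284 without that array. Rescaling moved the median of all genes in fibroblasts from -0.15 to between -0.14 and -0.12, with 12 genes still higher and 6 lower. Promoter motifs were not run, since no promoter sequence was used here. Near background, a small difference would not be seen.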

Other observations

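Values of UBE2L6 and ISG15 spread more widely over the replicate arrays of ORMES-22 than over those of the other populations. Genes in general did so too: the median SD over all genes was 0.16 in ORMES-22. It was 0.11 in rPESC-2, 0.10 in ORMES-9 and 0.10 in fibroblasts. UBE2L6, which conjugates ISG15, read 9.34, 8.02 and 7.48 on ORMES-22 arrays A, B and C, a range of 1.86, while its range was 0.48 within rPESC-2, 0.26 within ORMES-9 and 0.19 within fibroblasts. ISG15 read 8.88, 8.65 and 7.69 on the same arrays. MX1 read 8.82, 7.65 and 8.18, so its lowest array was B and not C. UBE2L6 averaged 9.38 ± 0.25 in rPESC-2 (SD, n = 3), 1.10 above ORMES-22 (SE 0.34, limma adjusted p = 0.096), a difference of over 2-fold that was not called. These genes were picked after their values were seen.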
